A study of Homo sapiens with 18 samples.

Results

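The data described here are the MeDIP-seq libraries of K562 cells silenced with TALE proteins and of untreated K562 cells, 3 libraries in each group. They were chosen by their sample titles and are 6 of the 18 samples of the series and 6 of its 9 MeDIP libraries. K562 is an established human leukaemia line, and cells of every group carried a transgene named B2M:tdTomato. Per the labels, treated cells received a mixture of 3 plasmids that each encode a different ATR, an abbreviation the labels do not spell out. The amount was 1 ug of the plasmid for the D3A-based protein, and the other plasmids were added at an equal molar ratio. A dCas9 silenced group of 3 libraries, which received dCas9-based proteins and plasmids for guide RNAs, is used only to estimate the spread and for values set beside those of TALE. The untreated group serves as the only control, the time from treatment to collection is not stated in the labels, and neither is whether replicates were separate cultures. P-values below therefore measure the spread between these libraries, which may be technical.

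Methylation of cytosine at CpG sites is a heritable mark of vertebrate DNA, and dense methylation of a promoter goes with a silent gene. TALE proteins are programmable DNA-binding proteins, used in this series to bring DNA methylation to the promoter of B2M, whose protein, beta-2 microglobulin, is the small chain shared by all MHC class I molecules. In MeDIP-seq an antibody against methylated cytosine captures DNA fragments, so the count of a region rises with the methylated CpG sites its fragments hold. It gives no methylation level of a single site, and it also rises with the number of copies of that stretch of DNA in the cells.

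The comparison turned on a region over the B2M promoter, to which the proteins were made to bring methylation, and the first 300 bases of that region are printed. The bounds of the region come from the peak lists, and the labels do not name the binding sites. A further region with more counts in the TALE libraries, near UBL4B, is printed for contrast as the region of at most 300 bp with the smallest p among those higher in TALE. Both are reference sequence of GRCh37 (hg19), plus strand, 5′ to 3′, with each CpG in capitals.
B2M promoter, chr15:45003405-45003704: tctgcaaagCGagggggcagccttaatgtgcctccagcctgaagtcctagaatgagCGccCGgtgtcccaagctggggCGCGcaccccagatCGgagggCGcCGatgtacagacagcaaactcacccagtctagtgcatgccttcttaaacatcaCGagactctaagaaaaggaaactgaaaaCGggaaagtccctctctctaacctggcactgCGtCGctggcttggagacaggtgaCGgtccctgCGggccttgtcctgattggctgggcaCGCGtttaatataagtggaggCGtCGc
UBL4B, chr1:110663091-110663284: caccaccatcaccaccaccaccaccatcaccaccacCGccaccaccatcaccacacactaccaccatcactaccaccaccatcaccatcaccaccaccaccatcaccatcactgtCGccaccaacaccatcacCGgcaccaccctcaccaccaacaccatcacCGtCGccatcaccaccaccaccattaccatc
The B2M stretch holds 18 CpG sites and the UBL4B stretch, built from repeated short units, holds 5.

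The deposited table gave a count for each of 198884 regions. Counts in the table summed to 2529729, 2961704 and 4261460 in TALE replicates 1, 2 and 3 and to 3790610, 2767297 and 3753156 in the untreated replicates. Every region was rebuilt exactly, with 0 mismatches to its deposited bounds, as the stretch shared by the largest local number of the 9 deposited peak lists. Regions were 1 to 19299 bp long, with a median of 287 bp and 2.81 CpG per 100 bp. The TALE peak lists held 87978, 97284 and 117948 peaks and the untreated lists 111552, 94344 and 111933, so the groups overlapped (exact two-sided permutation test, p = 0.8). With 3 against 3 libraries that test cannot go below 0.1. The length that peaks covered also overlapped, at 114 ± 23.9 Mb for TALE and 118 ± 12.6 Mb for untreated (SD, n = 3; exact permutation p = 0.9). In the RNA libraries of the same groups all 10 erythroid markers of K562 were expressed, and their summed level was 6808 to 10639 CPM (counts scaled to a common library size) in TALE and 8569 to 9136 CPM in untreated libraries. Of 7 lymphoid markers, CD2 was at 0 in all 6 libraries, and 2, PTPRC and CD3D, had a mean of at least 1 CPM. PTPRC stood at 207 to 245 CPM in TALE against 283 to 316 CPM in untreated libraries. Such a mean was also reached by 5 of 10 epithelial and fibroblast markers and by 1 of 9 monocyte and granulocyte markers, LYZ. The highest of these, KRT18, stood at 214 to 285 CPM in TALE and 204 to 228 CPM in untreated libraries. Expression was thus not limited to the erythroid markers. No region of the table lay in CDKN2A or CDKN2B, genes that K562 is known to have lost. Chromosome Y held 356 regions, with 0.0915 to 0.105% of the counts in the 6 libraries.

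The B2M promoter region gained MeDIP counts in every TALE library. It spans chr15:45003405-45003721, with 310 bases before the B2M transcript start at 45003715 and 7 from it on, and also lies in an annotated transcript of PATL2. The TALE libraries held 7, 10 and 9 counts and the untreated libraries 0, 0 and 0. No untreated library came near a TALE library, although the counts behind each value are few. The TALE mean was 3.21 ± 0.727 CPM (SD, n = 3). It lay 9.44-fold above a floor of 0.34 CPM that 3 counts over the untreated group allow. With the lower 95% counting limit of the 26 TALE counts the bound was 5.98-fold, and this limit covers counting error only. With untreated replicate 1 left out the bound was 5.96-fold, and without untreated replicate 3 it was 6.00-fold.

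The promoter region did not pass the threshold of the test across all regions. With edgeR's quasi-likelihood test its fitted log2 fold change was 6.21 (SE 1.35), ranked 3 of 105652 tested regions, with a Benjamini-Hochberg adjusted p of 0.522. The fitted value depends on a small prior count and is no bound. The filter on low counts asked for 3 libraries at 3.38 CPM of all counts. The region reached it in exactly 3, namely TALE replicate 2 and 2 dCas9 libraries of the same fit. It was thus tested only through silenced libraries, in which it is high, so its rank is a description and no support. The dCas9 silenced cells, compared with the same untreated libraries, held 14, 13 and 16 counts there. Among the 6 libraries only TALE replicate 2 had a called peak there, to which the authors' peak caller gave a fold enrichment of 2.71. The bounds of the region are those of that peak.

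**Figure D1:**
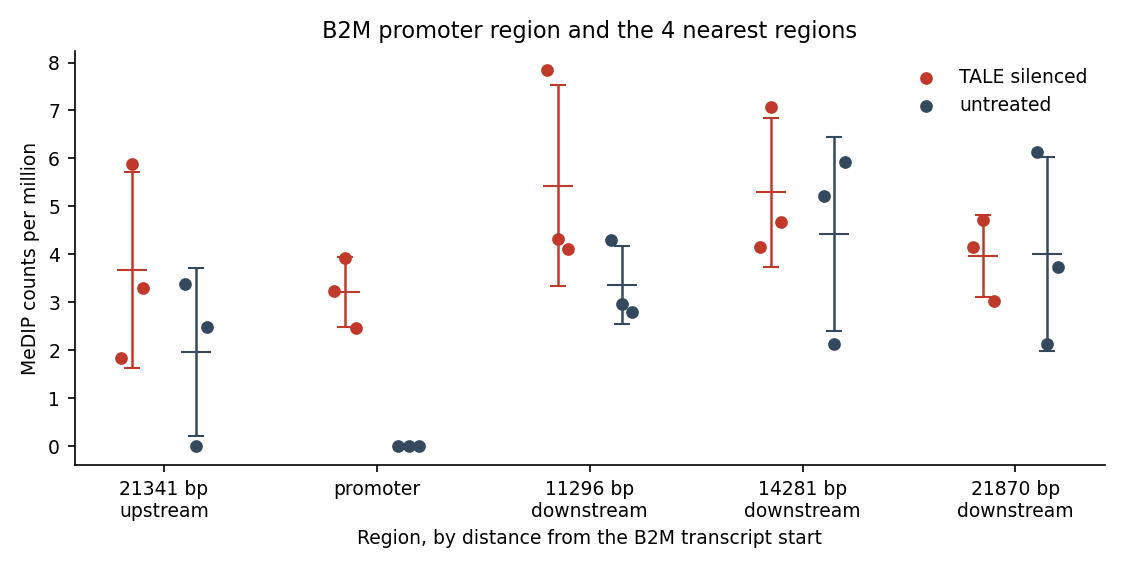
MeDIP CPM (y axis) in each library for the B2M promoter region and the 4 regions nearest to it (x axis, distance from the transcript start); points are single libraries and bars the mean ± SD of 3. The 3 untreated libraries are at 0 in the promoter region, where TALE libraries lie around 3.21, while the groups overlap in the other 4 regions.

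The regions around the promoter did not move as a group. Within 100000 bp of the B2M transcript start the table held 33 regions, mostly in SPG11, PATL2 and TRIM69. The nearest upstream of the promoter lay in a PATL2 intron 21341 bp away and held 4, 15 and 12 counts in TALE against 11, 0 and 8 in untreated libraries. The nearest downstream, 11296 bp away and before the start of TRIM69, a gene of the tripartite motif family, held 17, 11 and 15 against 14, 7 and 9. In both the groups overlapped. Of the 25 neighbours that were tested, 1 had an unadjusted p under 0.05, in a background of 4.74% of all tested regions. It was an exon of SPG11 (spatacsin) with 7, 6 and 7 counts in TALE and 26, 7 and 15 in untreated libraries, a log2 fold change of -1.12 (SE 0.504), and the groups overlapped. The median log2 fold change of the 25 neighbours was 0.03, with a range from -1.12 to 1.34, and their groups did not overlap in 1 case, at a start of PATL2 with TALE below, beside 10.2% of all tested regions.

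Across the genome no region passed the threshold. Of 105652 regions tested by edgeR's quasi-likelihood test, 0 were called higher (0%) and 0 lower (0%) at an adjusted p under 0.05, and the smallest adjusted p was 0.484. An unadjusted p under 0.05 was found for 5011 regions, 2524 higher (2.39%) and 2487 lower (2.35%) in TALE, where a flat distribution of p-values gives 5282.6. DESeq2 called 0 regions and gave 2661 at an unadjusted p under 0.05. The median log2 fold change was -0.00088 and the middle 50% of regions lay between -0.24 and 0.24. A tested region held a median of 18 counts per library, and the median SE of a log2 fold change was 0.38. Changes of several times that error, such as -1.56 (SE 0.336) near VEZT, did not pass the threshold either.

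**Figure D2:**
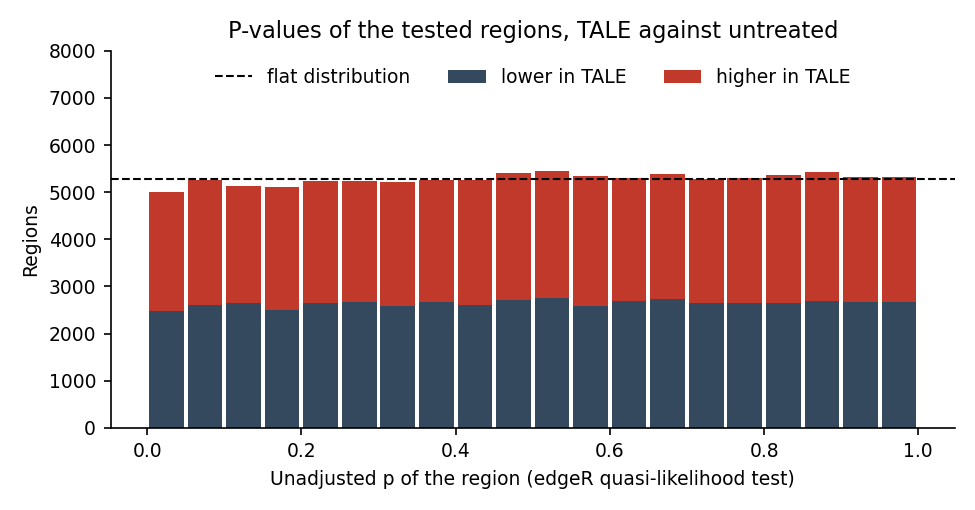
Number of regions (y axis) by unadjusted p of the edgeR test (x axis, 20 bins), split into regions higher and lower in TALE; the dashed line is the 5282.6 regions per bin of a flat distribution. The lowest bin holds 5011 regions, fewer than the line.

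On chromosomes 1 to 22 and X, to which the choice of named regions was limited, the 10 regions with the smallest p among those higher in TALE were led by B2M, and apart from it none lay within 1000 bp of a gene start. By place, 5 of the 10 lay in introns, 3 between genes and 1 in a noncoding gene. Their adjusted p ran from 0.522 to 0.772, so none is a call, and their values are given as a description. In an intron of CNTNAP2, a neurexin-family adhesion gene, TALE libraries held 81, 88 and 198 counts and untreated libraries 57, 48 and 112 (log2 fold change 0.81, SE 0.184). The region 8026 bp downstream of the start of UBL4B, which codes for a ubiquitin-like protein, held 32, 25 and 77 against 4, 16 and 31. In CPM the CNTNAP2 groups overlapped, at 34.5 to 54.4 in TALE and 17.5 to 34.9 in untreated libraries, and the UBL4B groups came close, at 9.81 to 21.1 and 1.23 to 9.65.

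The other higher regions had fewer counts and groups that lay apart. The region 7462 bp upstream of GADD45B, a stress-response gene, held 13, 19 and 33 counts in TALE and 7, 3 and 5 in untreated libraries. Next to CTCF, the zinc finger protein that bounds chromatin loops, a region 4759 bp upstream of its start held 24, 23 and 38 against 9, 7 and 14. An intron of RASGEF1C, a Ras exchange factor gene, held 14, 12 and 23 against 4, 2 and 3. These groups did not overlap on the CPM scale. Downstream of the start of RPL11, a protein of the large ribosomal subunit, 33, 30 and 43 counts faced 22, 8 and 17. An LSM6 intron, in a gene of the Lsm ring that binds RNA, held 18, 16 and 19 counts in TALE and 6, 2 and 2 in untreated libraries. For CLSPN, the checkpoint adaptor claspin, an intron region held 17, 20 and 25 against 6, 7 and 5. The same separation held there and in a TM2D1 intron, with 26, 36 and 53 counts against 23, 13 and 15. In all, groups lay apart in 9 of these 10 regions, a property the choice by p favours and which 5.15% of all tested regions had with TALE above.

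The 10 regions with the smallest p among those lower in TALE on the same chromosomes had log2 fold changes from -2.43 to -1.52. A mitochondrial region with a smaller p than any of them, where the groups overlapped, lies outside these chromosomes and is described on its own. None lay within 1000 bp of a gene start, 3 were in introns, 3 in noncoding genes, 3 between genes and 1 in an exon. The region near VEZT, the gene of the junction protein vezatin, ranked 2 of all regions and held 14, 14 and 9 counts in TALE against 46, 27 and 47 (log2 fold change -1.56, SE 0.336, edgeR adjusted p = 0.522). The region 46709 bp upstream of MSRB2, a mitochondrial methionine sulfoxide reductase gene, held 4, 2 and 4 against 40, 7 and 14. Untreated replicate 1 alone held most of those untreated counts. In an intron of NDUFAF6, an assembly factor of respiratory complex I, 6, 16 and 14 counts faced 44, 39 and 27. The region 44360 bp upstream of IL6ST, which codes for the interleukin-6 family receptor subunit gp130, held 2, 2 and 8 counts against 20, 15 and 24. An exon of RAB12, a small GTPase gene, held 6, 6 and 11 against 17, 26 and 43. TALE libraries lay below untreated libraries in each.

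The remaining lower regions showed the same pattern. A GALNT7 intron, in a gene that starts O-linked glycans, held 4, 2 and 8 counts in TALE and 26, 10 and 24 in untreated libraries. Upstream of NUTM2E, a region in a noncoding gene held 5, 6 and 10 against 19, 29 and 24. The region 5739 bp upstream of HCAR1, the lactate receptor gene, held 6, 4 and 6 against 26, 21 and 15. All untreated values lay above all TALE values in these regions. A CBFB intron, in the gene of core-binding factor beta, held 6, 8 and 16 counts against 34, 21 and 36. The region 2179 bp upstream of CATSPERG, a subunit gene of the sperm calcium channel, held 7, 5 and 3 against 23, 17 and 21. Groups lay apart in all 10 of these lower regions, a property the choice by p favours, beside 5.01% of all tested regions with TALE below.

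The region with the smallest p of all lay on the mitochondrial sequence and was lower in TALE. It covered positions 156 to 16421 of the hg19 mitochondrial entry, nearly its whole length, and held 2903, 2993 and 5265 counts in TALE and 3103, 7517 and 5809 in untreated libraries. In CPM the means were 1321 ± 137 and 1984 ± 1129 (SD, n = 3), so the groups overlapped, and untreated replicate 2 held the most counts of all 6 libraries. By edgeR the region had a log2 fold change of -0.58, an SE of 0.12 and an adjusted p of 0.484. It was called lower when TALE replicate 3, untreated replicate 1 or untreated replicate 3 was left out, which gave 1, 1 and 2 called regions. The further call without untreated replicate 3 was the CNTNAP2 region, higher in TALE.

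Repeat DNA made up much of what was tested. The run of 12 bases that most tested regions held, on either strand, was GCTGGGATTACA, a piece of Alu, the most common repeat family of human DNA, found in 51.7% of 105479 tested regions searched. Of the named regions it was in 6 of the 9 higher ones other than B2M and in 5 of the 10 lower ones, among them VEZT, CTCF, RPL11 and CBFB. Regions that held it had a median log2 fold change of 0.00041. How reads that match many Alu copies were placed is not given in the sources used here.

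Regions that share sequence with the targeted promoter were compared next. The longest run that the other 9 higher regions shared with the B2M promoter region, on either strand, was 11 bases, and 2.14% of all tested regions shared 12 or more. Regions with a shared run of 14 or more bases numbered 131, with a median log2 fold change of -0.00081 and an unadjusted p under 0.05 in 11, of which 5 were higher in TALE, where 4.74% of all tested regions had such a p. The smallest adjusted p among them was 1.00 by edgeR. The TALE binding sites are not named in the labels, so sites that match them were not searched for.

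A region empty in all untreated libraries was not particular to B2M. No counts in the 3 untreated libraries were found in 4162 regions, and 7 of these held 20 or more counts in TALE libraries. Only 1 of the 4162, that of B2M, passed the filter and was tested. The B2M promoter had 26 counts, as had an intron region of LOXHD1 with 0, 15 and 11, while a region 1056 bp upstream of PIK3C2B, a phosphoinositide kinase gene, held 10, 6 and 7. Only 3 of the 7, namely B2M, PIK3C2B and a region in EHBP1, held at least 4 counts in every TALE library, and B2M alone of the 7 lay within 1000 bp of a gene start. B2M also had the highest CpG density of the 7, at 6.31 per 100 bp, above 97.3% of all regions of the main chromosomes. The LOXHD1 region was close to it, at 6.10 per 100 bp. In the opposite direction 4227 regions were empty in all TALE libraries, none of which was tested, and 12 held 20 or more untreated counts. They were led by an intron of MAX, the partner protein of MYC, with 8, 11 and 11. Of those 12, 6 held at least 4 counts in each untreated library and 0 lay within 1000 bp of a gene start.

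Peak calls, made from the same reads, are described here without a test. A peak in all 3 TALE lists and no untreated list was found in 718 regions, and the reverse in 1113 regions, while 56553 regions had a peak in all 6 lists. Such numbers can move with depth, and TALE replicate 1 had the fewest counts and peaks of the 6 libraries, 2529729 and 87978. Gene starts made up 5.71% of the 718 regions and 5.03% of the 1113, beside 5.78% of the regions shared by all 6 lists. CpG density was 2.80, 2.86 and 3.16 per 100 bp in the same order. Each TALE list shared a mean base-pair Jaccard index of 0.49 with each untreated list, against 0.474 within TALE and 0.499 within untreated libraries, so lists differed as much within a group as between groups. The chi-square per degree of freedom of counts between libraries averaged 1.87 within TALE, 1.92 within untreated and 1.91 between groups, and these values do not tell separate cultures from repeat preparations.

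RNA of the genes beside these regions was measured in separate libraries of the same groups. B2M itself fell, with 3, 7 and 4 counts in TALE and 79, 48 and 54 in untreated libraries, a log2 fold change of -3.94 (SE 0.345), and it was called by edgeR in a background of 0.0218% of 13786 genes called lower. Reads of the transgene, listed as B2M_tomato, also fell, from 379 ± 18 to 15.1 ± 2.84 CPM (SD, n = 3). PATL2, which shares the promoter region, held 0, 0 and 1 counts against 1, 3 and 7 and was not tested. Of the 19 other genes beside the 20 named regions, 13 were tested and 0 were called, with log2 fold changes from -0.26 to 0.32. The only unadjusted p under 0.05 was that of CTCF, at 1465, 1629 and 1151 counts against 1336, 799 and 781 (log2 fold change 0.28, SE 0.129, edgeR adjusted p = 0.696). Neither CBFB, with 51.5 ± 7.44 against 46.7 ± 4.82 CPM, nor VEZT, with 44.95 ± 3.28 against 45.05 ± 2.63 CPM (SD, n = 3), differed by more than the spread between libraries.

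Gene lists showed no call and no common direction. Around the starts of class I antigen presentation genes 19 regions were tested, with a median log2 fold change of 0.05. Of these 1 region, that of B2M, had an unadjusted p under 0.05, beside 4.74% of all tested regions. HLA-E, a class I heavy chain gene, held 82, 78 and 140 counts in TALE and 104, 97 and 148 in untreated libraries. TAPBP and TAP2, genes that load peptide on class I molecules, held 70, 98 and 116 against 102, 42 and 122 and 63, 53 and 73 against 73, 62 and 69. CALR, a chaperone gene, held 24, 28 and 74 against 38, 20 and 50. The groups overlapped in these 4 regions.

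Of the DNA methylation machinery 46 regions were tested, with a median log2 fold change of -0.06. There was 1 unadjusted p under 0.05, beside 4.74% of all tested regions. DNMT1, the maintenance methyltransferase, held 190, 173 and 233 counts in its fullest region in TALE and 238, 128 and 205 in untreated libraries, and the region of that single p, in a DNMT1 intron, held 9, 6 and 14 against 20, 21 and 19. The groups of the first overlapped and those of the second did not, as in 5.01% of all tested regions with TALE below. Imprinted genes, whose methylation depends on the parent of origin, gave 41 tested regions with a median of 0.04 and 3 unadjusted p under 0.05 (4.74% of all tested regions), in RB1 (15, 26 and 15 against 12, 9 and 9, higher) and at BLCAP with NNAT and in GNAS (lower). IGF2R, the imprinted receptor gene with the most counts, held 297, 329 and 456 against 360, 308 and 370.

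Germline genes, which methylation keeps silent in body cells, gave 10 tested regions with a median of 0.10 and no unadjusted p under 0.05. SYCP3, of the meiotic chromosome axis, held 97, 73 and 92 counts in TALE and 79, 86 and 99 in untreated libraries. HOX genes gave 15 tested regions, also with a median of 0.10, and their fullest region, at HOXB7, held 110, 131 and 185 against 140, 117 and 144. There TALE lay just above without overlap in CPM, as in 5.15% of all tested regions. Erythroid genes had 26 tested regions with a median of 0.12, of which GYPC was higher and HBQ1 and EPOR were lower at an unadjusted p under 0.05, a count of 3 beside 4.74% of all tested regions. ANK1, the ankyrin gene of red cells, held 149, 170 and 206 against 155, 161 and 188. Housekeeping genes had 67 tested regions, a median of -0.01 and no unadjusted p under 0.05. The median of all tested regions was -0.00088, and no list had a call.

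The silencing proteins of this study are known to carry parts of DNMT3A, DNMT3L and ZNF10, so the regions in these genes were read separately. DNMT3A, the de novo methyltransferase, held 19 regions, of which 7 touched exons. Those 7 summed to 81.3, 70.7 and 79.4 CPM in TALE and 70.7, 88.3 and 69.1 CPM in untreated libraries, and the groups overlapped. The fullest of its regions near a start, an exon region, held 49, 52 and 79 counts against 43, 66 and 63. DNMT3L, a cofactor of the de novo enzymes, held 1 region and ZNF10, a KRAB zinc finger gene, held 8, none of them in an exon. Of 4 tested ZNF10 regions 1 had an unadjusted p under 0.05, lower in TALE, beside 2.35% of all tested regions in that direction.

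By place, length and CpG density the libraries of both groups were nearly alike. Introns held 53.5 ± 0.0199% of the counts in TALE and 53.5 ± 0.156% in untreated libraries (SD, n = 3), regions between genes 17.04% and 17.03%, exons 13.97% and 13.99% and regions at gene starts 6.41% and 6.37%. For every place the groups overlapped, and the smallest exact two-sided permutation p was 0.2 (adjusted 0.84 over 6 places). Regions with over 6 CpG per 100 bp held 2.04 ± 0.0271% in TALE and 2.07 ± 0.0845% in untreated libraries, and those that met the letter criteria of a CpG island 12.03% and 12.06%. Among 5 length classes, regions over 600 and up to 1200 bp held slightly more in each TALE library, at 15.7 ± 0.0158% against 15.6 ± 0.0587% (SD, n = 3), without overlap (exact permutation p = 0.1, adjusted 0.5). The B2M region belongs to the class over 300 and up to 600 bp and to the class over 6 CpG per 100 bp, in both of which the groups overlapped.

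By chromosome the shares did not overlap between groups for 10 of 23 chromosomes (43.5%), 2 with TALE above and 8 with TALE below. The shares of a library have a fixed sum, so higher shares on some chromosomes go with lower shares elsewhere. Chromosomes 7 and 12 were higher by 0.177 and 0.0761 percentage points. The 8 lower ones differed by -0.0109 (chromosome 21) to -0.0863 points (chromosome 19), and need not be separate losses. Chromosome 7 held 6.66, 6.74 and 6.64% of the counts in TALE and 6.53, 6.49 and 6.49% in untreated libraries. Chromosome 12 held 4.44, 4.44 and 4.46% against 4.39, 4.35 and 4.38%. Chromosome 19 held 6.22, 6.20 and 6.21% against 6.30, 6.29 and 6.29%. Each of these reached p = 0.1 in the exact permutation test, the smallest p the design allows, and 0.23 after adjustment over 23 chromosomes. When only regions that passed the filter were counted, groups lay apart for 4 chromosomes.

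On chromosomes 7, 12 and 19 the difference lay in a part of the chromosome. After the chromosome shares were seen, counts of all regions were summed over windows of 10 Mb and tested with the same edgeR fit, which called 10 of 294 windows higher (3.4%) and 7 lower (2.38%). In 15 of the 294 windows the fit gave no usable statistic, and none of these is a call. The limma-voom test, tried for that reason, called the same 17 windows and no other. The higher windows were 7 of the 10 on chromosome 7 from 60 Mb on and the 3 on chromosome 12 from 40 to 70 Mb. On chromosome 7 the windows from 80, 110 and 140 Mb were not called, with log2 fold changes of -0.03, 0.03 and 0.03 and RNA medians of -0.10, -0.15 and 0.11 over their 14, 12 and 32 genes. The lower windows were the 3 of chromosome 19 from 30 Mb on and single windows on chromosomes 1, 17, 18 and 21. The groups did not overlap in any of the 17 called windows, beside 19.4% of all windows. Without untreated replicate 3 the calls numbered 8 higher and 2 lower, and with the regions between genes alone 2 higher and 2 lower of 148 windows.

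The changes were a few percent in each block, which were delimited after their values were seen and are given without a test. Chromosome 7 from 60 Mb on held 4.81, 4.91 and 4.80% of the counts in TALE and 4.68, 4.64 and 4.64% in untreated libraries, 4.04% more, while chromosome 7 up to 60 Mb held 1.84 ± 0.00973% and 1.85 ± 0.00563% (SD, n = 3). Chromosome 12 from 40 to 70 Mb held 1.05, 1.06 and 1.06% against 0.99, 0.965 and 0.98%, 7.87% more, and the rest of that chromosome did not follow: 0.87 ± 0.0145% against 0.877 ± 0.0028% before the block and 2.52 ± 0.00549% against 2.52 ± 0.00797% behind it. Its window from 50 to 60 Mb had the smallest p of all windows, with a log2 fold change of 0.12 (SE 0.0105, edgeR adjusted p = 1.34e-11). Within the block, tested regions in introns, exons and between genes and those at gene starts all had medians above 0, at 0.08, 0.12, 0.10 and 0.13. On chromosome 7 the same 4 medians were 0.06, 0.05, 0.06 and 0.10.

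The largest change of a called window was a fall. Chromosome 1 from 190 to 200 Mb held 0.168, 0.165 and 0.172% of the counts in TALE and 0.187, 0.199 and 0.189% in untreated libraries, a log2 fold change of -0.18 (SE 0.0231, edgeR adjusted p = 8.64e-08). Chromosome 19 from 30 Mb on held 3.10, 3.06 and 3.11% against 3.21, 3.24 and 3.20%. Up to 30 Mb it held 3.12 ± 0.0181% against 3.08 ± 0.0249% (SD, n = 3). There each TALE library lay slightly above each untreated library, the opposite direction, and 0 windows were called. The other 3 lower windows were chromosome 17 from 30 to 40 Mb at -0.07, chromosome 18 from 60 to 70 Mb at -0.13 and chromosome 21 from 20 to 30 Mb at -0.12 on the log2 scale. The dCas9 libraries, set against the same untreated libraries, had the sign of TALE in all 17 windows, for example 0.12 on chromosome 12 from 50 to 60 Mb and -0.15 on chromosome 1 from 190 to 200 Mb. The shared untreated libraries enter both differences.

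RNA from the same stretches was set beside the MeDIP counts. Of 16 called windows with at least 10 tested genes, the median RNA log2 fold change had the sign of the MeDIP change in 16, beside 159 of 265 other windows. The sign says little where few genes were tested, as on chromosome 18 from 60 to 70 Mb, where 10 genes had a median of -0.01 and TALE libraries lay at 0.20, -0.05 and -0.24 against -0.01, -0.10 and 0.07. The 349 genes of chromosome 7 from 60 Mb on had a median RNA log2 fold change of 0.07, with 64.8% above 0, and the 173 genes of the rest of the chromosome -0.02. The 196 genes of chromosome 12 from 40 to 70 Mb had a median of 0.11, and the 472 genes of chromosome 19 from 30 Mb on -0.05. In single libraries, medians on chromosome 7 from 60 Mb on lay 0.08, 0.06 and 0.04 above the untreated mean in TALE and at 0.00, 0.00 and -0.01 in untreated libraries, without overlap. On chromosome 12 they lay at 0.05, 0.12 and 0.08 against 0.04, 0.00 and -0.04, and on chromosome 19 untreated replicate 1, at -0.05, lay right beside the TALE libraries at -0.07, -0.05 and -0.05. More methylated DNA and more copies of a stretch of DNA cannot be told apart in these counts, because MeDIP counts rise with both, and libraries without capture were not analysed here.

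The B2M promoter region lay outside all called windows. Chromosome 15 as a whole held 3.37, 3.36 and 3.37% of the counts in TALE and 3.43, 3.39 and 3.37% in untreated libraries, lower in TALE by a narrow margin. Of the 20 named regions, that of CATSPERG on chromosome 19 falls in a called window. The CNTNAP2 region falls in the chromosome 7 stretch from 60 Mb on, but in its window from 140 to 150 Mb, which was not called (log2 fold change 0.03). The changes of CNTNAP2 and CATSPERG, 0.81 and -1.88, are far larger than those of the stretches.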

How the data were processed

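MeDIP-seq counts of 3 TALE and 3 untreated libraries were compared, with the 3 dCas9 libraries kept in the fit to estimate the spread. Per the labels' protocols, adapter-ligated samples were combined before the antibody step, so the libraries pooled with each other shared a capture. Per the submitters' processing notes, reads were handled with BWA 0.7.5, Picard, MACS2 and bedtools on hg19, and RNA reads with STAR 2.3.0. Read counts per region and per gene were used as the authors deposited them. How they were counted, filtered for duplicates or assigned to repeats is not given in the sources used here, and each could change a region's value. The deposited peak lists, called per library, give a fold enrichment as a ratio, −log10 p and q and a score, all the authors' own, and served here for describing and filtering peaks alone. The regions are cores shared by peak lists, which leaves sites that no library called unmeasured.

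Regions and genes were compared by edgeR 4.0.16 (R 4.3.3, TMM, filterByExpr with a minimum of 10 counts, quasi-likelihood test, prior count 0.125, Benjamini-Hochberg adjusted p under 0.05). DESeq2 1.42.0 and, for windows, limma 3.58.1 with voom served as alternatives. CPM are counts scaled to the TMM-corrected library size. Single values were compared by exact permutation tests, of log2(CPM + 0.5) for regions. Overlaps came from bedtools 2.31.1, sequences from samtools 1.23.1, and gene positions from GENCODE on GRCh37. A region was placed at a gene start within 1000 bp of a protein-coding transcript start. The region and window tests were also run on simulated counts with known changes, built with the library sizes and fitted spread of these data. The outcome is not reported here. Depth in regions was 2529729 to 4261460 counts in the 6 libraries.

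Named regions were those within 100000 bp of the B2M start, those past the threshold, the 10 smallest p in each direction on chromosomes 1 to 22 and X, and, for each gene list, counts and up to 4 regions with the most counts within 2000 bp of a member's start. The members and lists were chosen with earlier results of these data known, and the windows, the mitochondrial, empty-region, peak-support and shared-run descriptions were added after seeing the data. RNA and MeDIP libraries of the same replicate number were not treated as pairs, and whether they are was not tested.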

Additional observations from a re-analysis of the deposited data

How the results depend on the processing

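The count of called regions was 0 under edgeR with size factors of DESeq2, without a filter, with a stricter filter, with TALE and untreated libraries only, with the replicate number as a block and under DESeq2's own test. Leaving out 1 library gave 0 to 2 calls. The B2M promoter region was tested in 10 fits, with log2 fold changes from 5.65 to 6.34 and adjusted p from 0.45 to 1.00. With 0 counts in every untreated library, the region could not change direction in any of these fits. It was not tested with the stricter filter or with the 6 libraries alone, and with a pseudocount of 0.5 CPM the log2 ratio of means was 2.89. With the replicate block it was 6.23 (edgeR adjusted p = 0.647). Same-numbered TALE and untreated libraries did not deviate together across regions (r = -0.00136, -0.00475 and 0.000314). In RNA the same-numbered r were 0.0649, -0.0555 and 0.0813, and those of other pairs ran from -0.101 to 0.0573. A tested region held a median of only 18 counts per library, so an r near 0 cannot exclude pairing. RNA calls beside the named regions stayed at 1 (B2M) under every alternative run.

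Chromosomes without overlap between groups numbered 4 in place of 10 when only tested regions were counted. The Jaccard index between groups was 0.129 with peaks of at least 3-fold enrichment, and the share of TALE peaks that an untreated list overlaps was 78.7% by 1 bp and 66.4% by 50% of the peak. Called windows numbered 27 at 5 Mb, 12 at 20 Mb, 4 of 148 with regions between genes, 1 of 176 with regions that failed the filter, 13 with regions that passed it, 18 with the block, and 10 to 19 with 1 library left out, the lowest without untreated replicate 3 (8 higher, 2 lower). Calls numbered 17 with limma-voom. Low counts limit single regions, and 3 libraries a group limit every comparison.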
